A study of Homo sapiens with 24 samples.

Results

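The transcriptional response of MDA-MB-231 cells to abemaciclib was described from 6 of the 24 libraries of the series, namely the 3 libraries that the labels assign to DMSO and the 3 that they assign to abemaciclib in this line. MDA-MB-231 is an established ER-negative breast cancer line with a mesenchymal phenotype, and the labels give it as wild type. Cells received DMSO or abemaciclib at 500 nM for 5 days (n = 3 libraries per group). The remaining 6 libraries of the line came from cells given fulvestrant at 5 nM, alone or together with abemaciclib at 500 nM, also for 5 days. They were used to estimate the spread between replicates and, as a further comparison, to measure the same drug against a fulvestrant background. MDA-MB-453, an epithelial line given the same treatments, served only to ask which effects differed between lines. The study describes the replicates of this line as biologically independent samples of an experiment done once, and a single line stands for the mesenchymal phenotype.

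Abemaciclib inhibits CDK4 and CDK6, the kinases that act with D-type cyclins to phosphorylate the retinoblastoma protein (Rb). Hypophosphorylated Rb binds E2F factors and holds genes of DNA replication and mitosis at low levels, which is the best known consequence of the drug. Mesenchymal breast cancer cells carry vimentin, integrins and matrix proteins in place of most epithelial junction genes. Outside the cell cycle, the gene programmes described here are those that cells regulate as units: interferon-stimulated genes, which carry response elements for interferon regulatory factors; lysosomal genes, many of which hold a motif bound by TFEB and TFE3; matrix and adhesion genes; the heat shock and ATF4 stress programmes; and the large housekeeping sets that make ribosomes, spliceosomes and proteasomes.

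Gene counts came from 3′ RNA-seq, in which reads start near the poly(A) tail, so that a count stands for a transcript end and not for its length. Totals were 3280637 to 3424534 counts in the DMSO libraries and 3291153 to 3649306 in the abemaciclib libraries, and 11314 of the 59610 genes in the table had enough counts to be tested. The mitochondrial genome supplied 8.69% to 9.08% of the counts under DMSO and 11.1% to 13.2% under abemaciclib. The biological coefficient of variation between replicates of the line was 13.4%. Levels are given as CPM, which are counts brought to the same library total after TMM scaling of the libraries (trimmed mean of M values), and differences as log2 fold changes of abemaciclib over DMSO with a standard error (SE) and an adjusted p from edgeR's quasi-likelihood test. A gene was called higher or lower at an adjusted p below 0.05 over all 11314 genes, and "rose" and "fell" are used only of called genes. A value after "rose by", or in brackets beside a gene and with no unit, is a log2 fold change.

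The identity of the line was checked first on its markers. VIM, which encodes vimentin, had 4592 to 5685 counts per library under DMSO, CD44 had 838 to 887 and the transcription factor ZEB1 had 123 to 156. The epithelial splicing factor ESRP1 and the epithelial transcription factor GRHL2 had 0 counts in all 6 libraries, and the epithelial adhesion gene EPCAM had at most 7. The label was met by these markers, although the keratin gene KRT19 was present at 246 to 334 counts under DMSO. The E-cadherin gene CDH1 had 31 to 37 counts under DMSO and 24 to 45 in the MDA-MB-453 DMSO libraries, so it did not separate the lines. Of 25 marker genes of luminal and apocrine cells written for the other line of the study, 10 had 0 counts in all 6 libraries, among them PIP, AZGP1 and TFAP2B, which had 137 to 177, 5196 to 5701 and 1577 to 1654 counts in the MDA-MB-453 DMSO libraries. KRT23, also among the 10, had at most 1 count in those MDA-MB-453 libraries and so tells nothing about them. Among the 11 markers with enough counts to test, 3 rose (median of the 11, 0.42; AGR2, MLPH with 1.41 and ERBB2 with 0.67) and none fell.

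Abemaciclib changed the levels of 3815 of the 11314 genes tested (33.7%), with 1908 genes higher (16.9%) and 1907 lower (16.9%). The sides were equal in number but not in size. The median called rise was 0.89 (quartiles 0.60 and 1.43) and the median called fall was −0.67 (quartiles −0.92 and −0.50). At least 2-fold changes numbered 808 among the rises and 383 among the falls, and at least 8-fold changes 64 and 5. Rises and falls also lay at different levels of expression. Among the 1750 genes averaging at least 100 CPM, 21.0% rose and 36.9% fell, whereas among the 1694 genes under 5 CPM, 11.6% rose and 2.66% fell. Of 339 long noncoding RNAs tested, 62 were higher (18.3%) and 24 lower (7.08%), against 1773 (17.3%) and 1811 (17.7%) of 10237 protein-coding genes. The share of long noncoding RNAs that rose was thus near that of all genes. Genes of any type at 5 to 20 CPM had 15.9% higher and 7.6% lower, and the gene types were not matched for level. In bulk cultures, fewer cells of a type and less RNA per cell cannot be told apart. When mitochondrial transcripts were left out of the totals, 1965 genes were higher and 1840 lower.

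**Figure D1:**
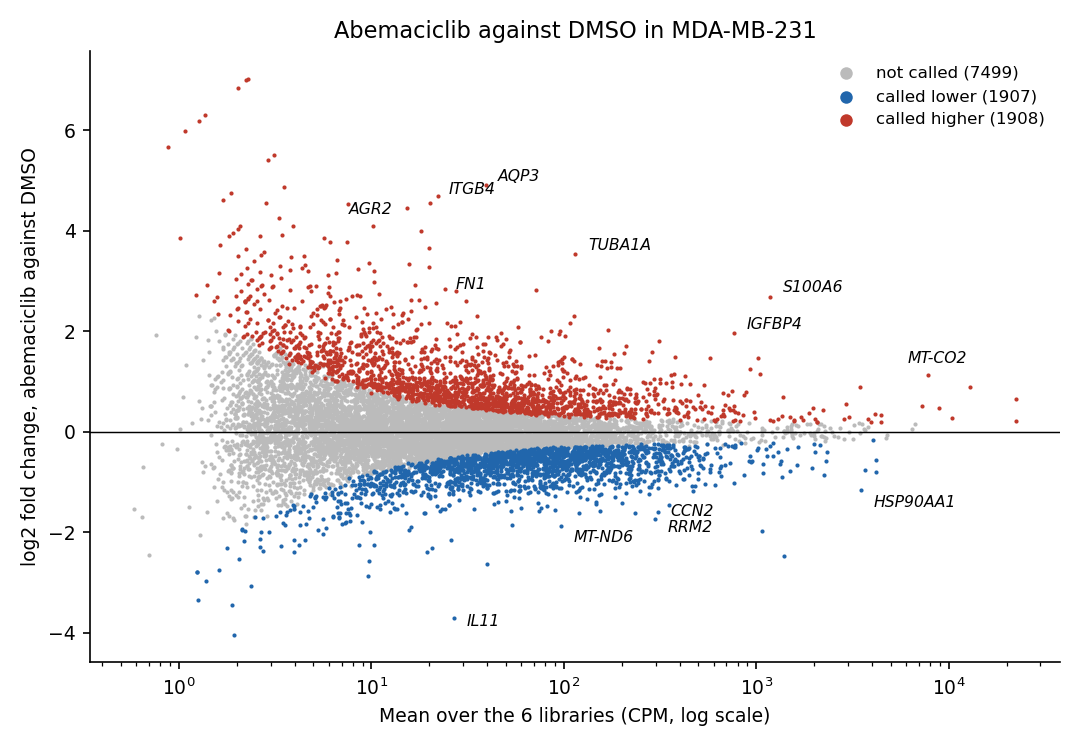
Each point is one of the 11314 genes tested, with its mean level over the 6 libraries in CPM on a log axis and its log2 fold change of abemaciclib over DMSO on the vertical axis; red and blue points are called higher (1908) and lower (1907). Called rises reach further from 0 than called falls, and called falls are most frequent among highly expressed genes.

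Many of the largest rises were in membrane and cytoskeletal proteins, several of which had few counts under DMSO. AQP3, an aquaporin that passes water and glycerol in epithelia (chromosome 9, 33441156 to 33447596 on GRCh38), was at 4.26, 1.47 and 1.80 CPM under DMSO and 63.1, 77.8 and 87.2 CPM under abemaciclib. ITGB4, the integrin β4 chain of hemidesmosomes (chromosome 17, 75721328 to 75757818), was at 1.22, 0 and 3.61 CPM under DMSO and 46.3, 48.3 and 33.2 CPM under abemaciclib. For both genes every abemaciclib library lay above every DMSO library, which the rule that chose the largest rises required. The log2 fold changes were 4.91 (SE 0.25, adjusted p 2.4e-19) and 4.70 (SE 0.37, adjusted p 1.4e-13). AGR2, a protein disulfide isomerase of secretory epithelia (chromosome 7, 16791811 to 16833433), was at 0.913, 2.35 and 0.602 CPM under DMSO and 29.1, 30.1 and 28.6 CPM under abemaciclib, and its log2 fold change was 4.46 (SE 0.39, adjusted p 2.8e-12). The carboxypeptidase gene CPA4 (4.09), NMNAT2, which makes NAD (3.99), and the lymphocyte receptor gene SLAMF7 (3.66) rose from 1.10 ± 0.453 to 19.2 ± 0.189 CPM, from 2.12 ± 1.87 to 34.0 ± 4.82 CPM and from 2.88 ± 2.15 to 36.9 ± 2.27 CPM. At such DMSO levels, single libraries hold few counts and the folds are imprecise.

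TUBA1A, GSN and MYLK were also among the largest rises. TUBA1A, an α-tubulin (chromosome 12, 49184686 to 49189080), was at 17.4, 21.5 and 15.9 CPM under DMSO and 217, 194 and 223 CPM under abemaciclib, and its log2 fold change was 3.53 (SE 0.14, adjusted p 1.4e-23). GSN, the actin-severing protein gelsolin, rose by 3.27, and MYLK, the kinase that activates myosin II by phosphorylating its light chain, by 3.20. The interferon-responsive Schlafen gene SLFN5 (3.34), REEP6, which shapes the endoplasmic reticulum (2.97), and CD22, a sialic acid-binding lectin best known from B cells (4.56), completed the genes chosen by size. TUBA1A rose while TUBA1B, TUBA1C and TUBB, the tubulin genes with the largest losses in CPM, fell (−0.77, −0.73 and −0.56), and of 16 tested genes with tubulin symbols 1 rose and 9 fell. These genes have near-identical coding sequences, and the handling of reads with several alignments is not stated, so counts can be split between them. Whether counting used the strand is not stated either, and 102 of 248 genes named here with a position in the annotation have exons that overlap an opposite-strand gene, so that reads of such a pair cannot be told apart. TUBA1A with TUBA1C, PSMB9 with PSMB8, HSP90AA1 with WDR20 and LAMA5 with ADRM1 are among them.

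Several transcripts of the mitochondrial genome, described separately, gained more CPM than any other gene. Outside the mitochondrial genome, the genes that gained most in CPM included small calcium-binding, actin-binding and sugar-binding proteins. S100A6, a calcium-binding protein of the S100 family (chromosome 1, 153534599 to 153536244), was at 311, 333 and 306 CPM under DMSO and 2077, 2142 and 1905 CPM under abemaciclib, with no overlap between groups, and its log2 fold change was 2.69 (SE 0.08, adjusted p 3.4e-27). LGALS1, the β-galactoside-binding lectin galectin-1, rose from 542 ± 35.7 to 1495 ± 163 CPM (SD, n = 3), and IGFBP4, a secreted inhibitor of IGF signalling, from 313 ± 11.3 to 1229 ± 79.0 CPM. The actin monomer-binding thymosins TMSB10 and TMSB4X rose by 0.56 and 1.25, the tetraspanin CD63 of late endosomes by 1.15, and the membrane-binding annexin ANXA2 by 0.69. RPS29, RPS12 and RPLP0 were also among the 10 largest gains in CPM of genes outside the mitochondrial genome, but with log2 fold changes of 0.27, 0.34 and 0.26.

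The largest falls included a cytokine, histones, kinetochore genes and mitochondrial transcripts. IL11, a cytokine of the IL-6 family (chromosome 19, 55364382 to 55370463), was at 49.3, 56.2 and 44.8 CPM under DMSO and 4.00, 4.86 and 2.73 CPM under abemaciclib, and its log2 fold change was −3.70 (SE 0.27, adjusted p 8.6e-15). The histone genes H4C3 and H1-4 fell (−2.48 and −2.39). Replication-dependent histone transcripts largely lack the poly(A) tail that primes these libraries, and H4C3 has near-identical copies, so their counts are uncertain. SPC25, a kinetochore component, fell (−2.31), and the centrosome kinase NEK2 (−1.90), the secreted metalloproteinase ADAMTS6 (−1.95) and ANKRD36C (−2.64), which has near-identical paralogues, fell too. Outside the mitochondrial genome, HSP90AA1 lost most in CPM, from 4880 ± 52.3 to 2168 ± 230.0 CPM, followed by the metallothionein MT2A, from 5324 ± 171 to 3041 ± 69.8 CPM. The remaining genes among the 10 largest losses were H4C3, the 3 tubulins above, prothymosin PTMA (−0.86), HSP90AB1 (−0.59), the topoisomerase gene TOP2A (−0.91) and the RNA-binding protein KHSRP (−0.78).

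**Figure D2:**
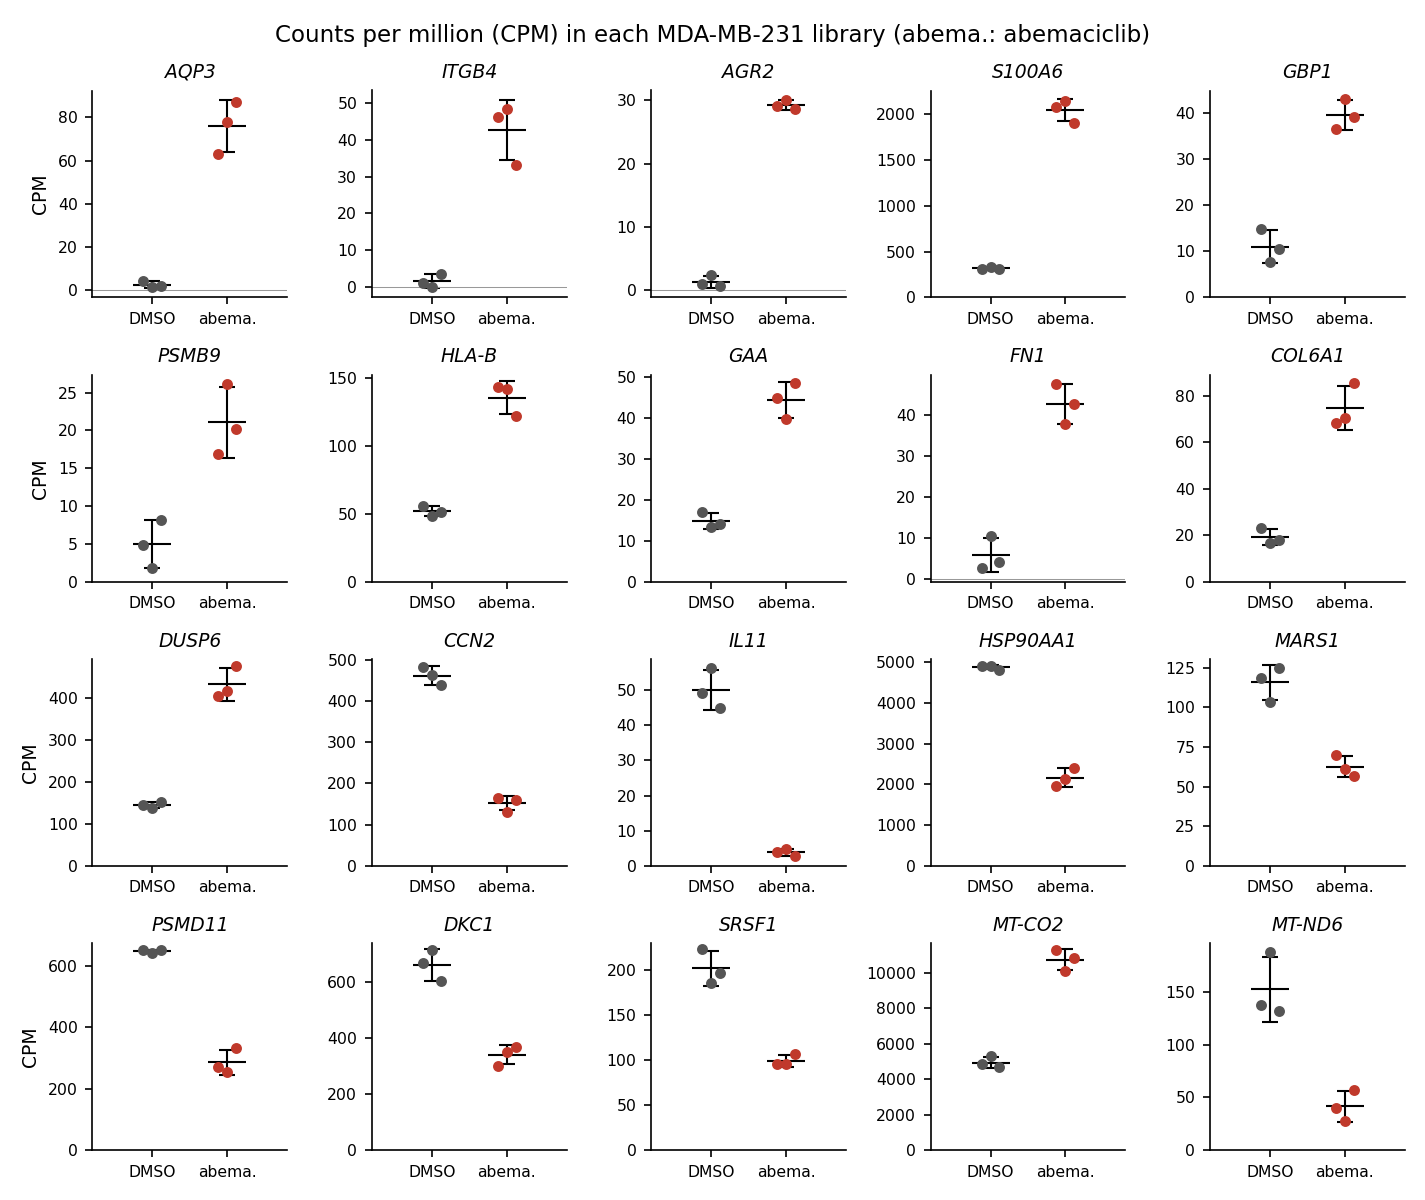
Each panel shows 1 gene, with CPM on a linear vertical axis; points are the 3 DMSO (grey) and 3 abemaciclib (red) libraries, and bars are the mean ± SD. In all 20 panels the ranges of the groups do not overlap, for rises such as S100A6, GBP1 and FN1 as for falls such as IL11, PSMD11 and MT-ND6. The panels show called genes chosen from those named in the text, some by a rule that required no overlap. They therefore give no share of all genes.

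To describe the response by function, 43 gene lists were written from general knowledge of pathways and cell types. They were written with earlier results of these data known, so their shares describe the response and test nothing. The filter on low counts could also be passed through the libraries of 1 treatment alone. Members with few counts under DMSO, such as APOL1, could thus be tested but hardly be called lower. The shares and medians were not corrected for this. Each list was read against the background of 16.9% of genes called higher and 16.9% called lower (median log2 fold change of all genes tested, 0.00). Of the 54 interferon-stimulated antiviral effectors, 41 were expressed enough to test, and 23 rose (56.1%) and 1 fell, with a median of 0.83, and the 1 fall became 2 without abemaciclib replicate 3. Their summed level went from between 1412 and 1439 CPM in the DMSO libraries to between 2339 and 2415 CPM in the abemaciclib libraries. GBP1, a guanylate-binding GTPase that attacks vacuoles of intracellular pathogens (chromosome 1, 89051882 to 89065360), was at 14.9, 7.65 and 10.5 CPM under DMSO and 36.6, 43.1 and 39.2 CPM under abemaciclib, and GBP2, of the same family, was at 14.9, 4.71 and 6.62 CPM under DMSO and rose from 8.75 ± 5.43 to 53.4 ± 3.33 CPM. The groups did not overlap for either gene, with log2 fold changes of 1.85 (SE 0.22, adjusted p 5.0e-09) and 2.61 (SE 0.25, adjusted p 3.9e-11). APOL1, a secreted trypanosome-lytic factor, rose from 1.19 ± 0.877 to 10.7 ± 2.04 CPM (log2 fold change 3.12), and UBE2L6, the enzyme that conjugates ISG15, rose from 5.34 ± 3.96 to 25.5 ± 4.14 CPM (2.25). ADAR, which edits double-stranded RNA, was not called, at 0.15 (adjusted p 0.452), and neither was IFIT5, which binds viral RNA, at 0.05 (adjusted p 0.859).

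Genes that sense nucleic acids or carry the interferon signal had rises and falls. Of 27 tested, 5 rose (18.5%) and 3 fell (11.1%), with a median of 0.16. The share that rose was near the 16.9% of all genes and the share that fell was below it, so the list as a whole did not stand out. The 5 became 3 when only genes averaging at least 10 CPM were tested. DDX58, which encodes the RNA sensor RIG-I, rose by 1.42 (SE 0.20, adjusted p 3.1e-07), and STING1, the adaptor of the DNA sensing pathway, by 1.16 (SE 0.28, adjusted p 0.00128). IRF9, the DNA-binding subunit of the ISGF3 complex, rose by 1.28 (adjusted p 0.00591), a call that was lost without DMSO replicate 2 (0.99). IRF7, the factor that amplifies type I interferon production, fell (−1.62, SE 0.46, adjusted p 0.00512).

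Most tested genes of antigen presentation by MHC class I rose. Of 18 tested members, 10 rose (55.6%) and 1 fell, with a median of 0.57. HLA-B, a class I heavy chain (chromosome 6, 31353872 to 31367067), was at 55.7, 48.5 and 51.5 CPM under DMSO and 143, 142 and 122 CPM under abemaciclib, and its log2 fold change was 1.38 (SE 0.14, adjusted p 1.1e-10), and HLA-C rose by 1.32 (SE 0.15, adjusted p 1.1e-09). Reads of class I genes can be split among near-identical loci and depend on the alleles of the line, so the split between HLA-B and HLA-C is uncertain. PSMB9, a catalytic subunit of the immunoproteasome, was at 4.87, 1.76 and 8.12 CPM under DMSO and 16.9, 26.1 and 20.2 CPM under abemaciclib (2.09, SE 0.34, adjusted p 3.7e-06). PSME1, which encodes the PA28α activator that opens the proteasome (chromosome 14, 24136163 to 24138967), was at 92.0, 104 and 96.3 CPM under DMSO and 237, 269.8 and 253 CPM under abemaciclib, and its log2 fold change was 1.38 (SE 0.11, adjusted p 5.5e-14). In all 4 genes, chosen as the called members with the largest changes, every abemaciclib library was above every DMSO library. No gene of the 12 written for MHC class II passed the filter on low counts. Of 7 complement genes tested, 4 rose and 1 fell (median 0.66), with rises of 1.48 in CD59, which blocks the membrane attack complex, and of 0.66 in clusterin (CLU), and a fall of −0.55 in C1QBP. Of 21 cell surface immune ligands, 7 rose and 2 fell (median 0.34), with LGALS3 at 1.83 and the CD2 ligand CD58 at 0.98 beside CD22 and LGALS1.

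Promoters of these genes were examined for the core of the interferon-stimulated response element, searched on either strand as GAAA, any 2 bases and GAAA again, in RefSeq windows of 300 bases from 250 before to 50 after each annotated start on GRCh38.p14. The letters were present in 3.57% of 35116 windows and in 338 of 8755 tested genes with a window (3.86%). Among the antiviral effectors they were present in 25 of 34 genes with a window (73.5%), including 14 of the 18 that rose and 10 of the 15 that were not called. Among the MHC class I genes they were present in 8 of 14 (57.1%), including 5 of the 8 that rose. Across all tested genes the share was 5.20% of those that rose, 3.34% of those that fell and 3.65% of those not called. The windows of a called antiviral gene, a called antigen presentation gene and an antiviral gene that was not called are shown to place the element, 5′ to 3′ on the strand of each gene and with the matching letters in capitals. They are GBP1 at chr1:89065159-89065458 (minus strand), with 1 match that begins 127 bases before the start, and PSME1 at chr14:24135944-24136243 (plus strand), with 1 match just after the start. The last is IFIT5 at chr10:89414318-89414617 (plus strand), with 3 matches that begin 45, 19 and 4 bases before the start.
GBP1: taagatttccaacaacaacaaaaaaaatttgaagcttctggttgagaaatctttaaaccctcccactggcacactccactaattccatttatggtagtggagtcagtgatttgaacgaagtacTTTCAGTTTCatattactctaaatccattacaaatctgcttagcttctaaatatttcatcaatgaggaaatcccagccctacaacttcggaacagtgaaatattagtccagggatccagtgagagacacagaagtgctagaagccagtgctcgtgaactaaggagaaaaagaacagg
PSME1: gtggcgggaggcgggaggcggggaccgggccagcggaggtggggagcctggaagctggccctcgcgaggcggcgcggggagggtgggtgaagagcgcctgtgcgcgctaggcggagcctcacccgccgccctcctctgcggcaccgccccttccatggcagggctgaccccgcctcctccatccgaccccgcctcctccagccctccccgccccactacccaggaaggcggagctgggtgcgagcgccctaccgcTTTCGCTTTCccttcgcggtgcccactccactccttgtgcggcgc
IFIT5: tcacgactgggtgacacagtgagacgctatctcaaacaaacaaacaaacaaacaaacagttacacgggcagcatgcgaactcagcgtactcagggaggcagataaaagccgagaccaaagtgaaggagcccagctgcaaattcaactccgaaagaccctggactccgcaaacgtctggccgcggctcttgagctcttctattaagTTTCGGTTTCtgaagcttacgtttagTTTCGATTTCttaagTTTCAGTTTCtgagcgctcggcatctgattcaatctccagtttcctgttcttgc
The log2 fold changes of GBP1, PSME1 and IFIT5 were 1.85, 1.38 and 0.05.

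Lysosomal genes formed the second large set of rises. Of 40 tested hydrolases, 24 rose (60%) and none fell, with a median of 0.75. Of 36 genes of the lysosomal membrane, its transporters and the proton pump, 20 rose (55.6%) and 1 fell (median 0.59), a single fall that was lost without abemaciclib replicate 2. GAA, the acid α-glucosidase that degrades glycogen (chromosome 17, 80101533 to 80119881), was at 17.1, 13.2 and 14.1 CPM under DMSO and 44.9, 39.8 and 48.5 CPM under abemaciclib, and its log2 fold change was 1.58 (SE 0.21, adjusted p 1.1e-07). The β-mannosidase MANBA, the tripeptidyl peptidase TPP1 and the α-fucosidase FUCA1 rose by 2.44, 2.11 and 1.80. The cathepsins CTSD and CTSB, the main lysosomal aspartic protease and a cysteine protease, rose from 90.6 ± 2.94 to 223 ± 13.0 CPM and from 70.9 ± 6.96 to 145 ± 8.16 CPM. GNPTG, a subunit of the enzyme that marks hydrolases with mannose 6-phosphate, rose by 1.70 (SE 0.34, adjusted p 9.3e-05), the cholesterol-binding protein NPC2 by 1.45 (SE 0.12, adjusted p 7.5e-13) and the sialic acid exporter SLC17A5 by 1.42 (SE 0.36, adjusted p 0.00155). GRN, which encodes progranulin (chromosome 17, 44345246 to 44353106), was at 153, 154 and 146 CPM under DMSO and 431, 446 and 328 CPM under abemaciclib, so that its lowest abemaciclib library was more than 2-fold above its highest DMSO library.

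The core of the CLEAR element, TCACGTGA, which reads the same on both strands, was present in 0.98% of all windows and in 2.38% of tested genes with a window. It was present in 5 of 28 hydrolases (17.9%), 4 of them among the 18 that rose, and in 6 of 28 membrane and pump genes (21.4%), 5 of them among the 17 that rose. Across all tested genes the share was 3.06% of those that rose, 2.29% of those that fell and 2.22% of those not called. GAA at chr17:80101331-80101630 and GNPTG at chr16:1351681-1351980, both on the plus strand, are shown because each rose and each held 2 copies, given in capitals.
GAA: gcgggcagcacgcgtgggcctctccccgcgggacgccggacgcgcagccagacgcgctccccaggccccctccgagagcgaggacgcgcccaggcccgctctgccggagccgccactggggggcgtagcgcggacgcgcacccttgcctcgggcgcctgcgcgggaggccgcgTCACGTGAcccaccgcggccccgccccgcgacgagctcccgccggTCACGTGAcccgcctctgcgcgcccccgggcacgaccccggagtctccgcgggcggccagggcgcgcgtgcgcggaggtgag
GNPTG: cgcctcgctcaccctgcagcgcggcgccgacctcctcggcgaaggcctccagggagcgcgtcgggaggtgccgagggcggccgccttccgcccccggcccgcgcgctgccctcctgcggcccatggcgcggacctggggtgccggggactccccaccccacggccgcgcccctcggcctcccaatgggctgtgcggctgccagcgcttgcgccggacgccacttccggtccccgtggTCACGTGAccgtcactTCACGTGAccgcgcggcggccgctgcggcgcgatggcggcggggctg
In GAA the copies began 77 and 32 bases before the start, and in GNPTG 13 bases before it and 3 bases after it. Most lysosomal genes that rose did not hold these exact letters in the window.

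Autophagy genes had rises and falls. Of 37 tested, 11 rose and 4 fell (median 0.07). The 11 became 6 without DMSO replicate 1 and 7 without abemaciclib replicate 2, and the 4 became 2 without DMSO replicate 3 or abemaciclib replicate 2. OPTN, a receptor that links ubiquitinated cargo to the autophagosome, rose from 26.5 ± 3.38 to 91.8 ± 10.1 CPM (1.79, SE 0.16, adjusted p 1.9e-12), and MAP1LC3B, the lipid-conjugated LC3B of the autophagosome membrane, by 0.94 (SE 0.15, adjusted p 3.6e-06). The receptor SQSTM1 was at 323, 311 and 311 CPM under DMSO and 317, 319 and 325 CPM under abemaciclib and was not called (0.02, adjusted p 0.868).

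Genes of the extracellular matrix had the largest median of the sets with more than 10 tested members. Of 25 structural genes tested, 15 rose (60%) and 1 fell, with a median of 1.10, and the fall was lost without any one of DMSO replicates 2 and 3 and abemaciclib replicates 2 and 3. Over the alternative settings other than the 2-fold minimum, the 15 went as low as 10. Some members, such as COL5A1, had few counts under DMSO. FN1, fibronectin (chromosome 2, 215360440 to 215436073), was at 2.74, 10.6 and 4.21 CPM under DMSO and 47.4, 37.7 and 42.8 CPM under abemaciclib, and its log2 fold change was 2.85 (SE 0.29, adjusted p 1.2e-10). COL6A1, a chain of the microfibrillar collagen VI (chromosome 21, 45981770 to 46005050), was at 23.1, 16.8 and 17.8 CPM under DMSO and 68.3, 70.5 and 85.5 CPM under abemaciclib, and its log2 fold change was 1.96 (SE 0.19, adjusted p 2.8e-11). The fibrillar collagen COL5A1 and the matricellular protein tenascin C (TNC) rose by 1.96 and 1.95. Basement membrane laminins rose in 5 of 6 chains tested, with LAMB2 from 18.9 ± 4.09 to 69.7 ± 9.05 CPM and LAMA5 from 13.9 ± 5.92 to 51.0 ± 5.82 CPM, while LAMB3, a chain of the laminin of epithelial anchoring filaments, was at −0.16 (adjusted p 0.193) and was not called. Of 30 enzymes and inhibitors that remodel matrix, 14 rose and 3 fell (median 0.49). The metalloproteinase inhibitors TIMP3 and TIMP4 rose by 2.36 and 2.14, the collagen cross-linking enzyme LOXL1 by 2.17 and the plasminogen activator PLAT by 1.88.

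Rises outnumbered falls among both epithelial and mesenchymal genes. Of 25 tested epithelial junction and differentiation genes, 12 rose (48%) and 1 fell (median 0.37), and the 1 fall became 2 without DMSO replicate 1, without abemaciclib replicate 3 and with only the 6 libraries compared. Besides AQP3 these included JUP, the plakoglobin of desmosomes and adherens junctions (from 5.09 ± 0.432 to 22.6 ± 0.0645 CPM, log2 fold change 2.14), the tight junction protein F11R (from 5.38 ± 1.5 to 19.7 ± 1.32 CPM, 1.87) and KRT19 (from 86.2 ± 14.1 to 228 ± 3.66 CPM, 1.41). CDH1, E-cadherin, was at 11.3, 9.12 and 11.1 CPM under DMSO and 8.86, 14.3 and 6.27 CPM under abemaciclib and was not called (−0.11, adjusted p 0.848). Of 25 mesenchymal genes tested, 11 rose (44%) and 2 fell (median 0.29), of which 1 remained without DMSO replicate 3 or abemaciclib replicate 2. Besides FN1, the cadherin of mesenchymal cells CDH11 rose by 2.13, the caveolin CAV2 by 1.41 and the collagen cross-linking enzyme LOXL2 by 1.17. Among the markers of the line, VIM rose by 0.29 (adjusted p 0.00384) and FOXC1 fell (−0.63, adjusted p 0.00488), and CD44 and ZEB1 were not called, at 0.07 (adjusted p 0.597) and 0.17 (adjusted p 0.449). The VIM call was lost without DMSO replicate 1 (0.23).

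Of 26 integrin and hemidesmosome genes tested, 10 rose and 1 fell (median 0.44). ITGA3, the integrin chain that binds laminin together with β1, was at 99.3, 100.3 and 95.7 CPM under DMSO and 325, 303 and 336 CPM under abemaciclib (1.71, SE 0.13, adjusted p 9.9e-14), with no overlap, and dystonin (DST), which anchors keratin at hemidesmosomes, rose by 0.93 (SE 0.13, adjusted p 2.0e-07). ITGA6, the partner of ITGB4 in hemidesmosomes, was at 55.4, 56.5 and 61.1 CPM under DMSO and 66.0, 55.0 and 63.2 CPM under abemaciclib and was not called (0.09, adjusted p 0.649), so that ITGB4 rose without its partner chain being called. ITGAV, the αV chain of fibronectin and vitronectin receptors, rose by 0.98 (adjusted p 0.00799), a call that was lost without DMSO replicate 3 (0.78).

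Of 37 receptor tyrosine kinases and ligands tested, 12 rose and 3 fell (median 0.27), and the 12 became 7 among genes averaging at least 10 CPM. TGFA and EREG, both ligands of the EGF receptor, rose from 2.30 ± 0.172 to 15.2 ± 3.96 CPM (2.71) and from 17.7 ± 0.248 to 43.5 ± 6.17 CPM (1.30). Of the other EGF receptor ligands on this list that were tested, named after their values were seen, HBEGF fell (−0.45, adjusted p 0.00494) and AREG was not called (0.35, adjusted p 0.545). The receptor ROR1 and GAS6, the ligand of AXL, rose by 2.10 and 1.70. The EGF receptor gene EGFR itself was at 228, 189 and 176 CPM under DMSO and 186, 214 and 222 CPM under abemaciclib and was not called (0.07, adjusted p 0.661).

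Of 25 MAPK feedback and output genes, 8 rose and 6 fell (median 0.03). DUSP6, the phosphatase that dephosphorylates ERK and is itself induced by ERK signalling (chromosome 12, 89347235 to 89352501), was at 145, 137 and 152 CPM under DMSO and 403, 416 and 475 CPM under abemaciclib, and its log2 fold change was 1.58 (SE 0.10, adjusted p 1.1e-16). PIM1, a serine/threonine kinase, fell from 16.7 ± 2.51 to 2.80 ± 0.778 CPM. Of 20 immediate early and AP-1 factors, 3 rose and 9 fell (median −0.60), and the 9 became 5 without DMSO replicate 2. BATF3, EGR1, MAFF and IER5 fell (−1.05, −0.99, −0.90 and −0.85), and the AP-1 subunit FOSL1 was at −0.13 (adjusted p 0.412).

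The YAP and TEAD target set had 9 rises and 7 falls among 29 tested (median −0.04), and the 7 became 4 without DMSO replicate 1 or without DMSO replicate 3. CCN2, the matricellular protein also called CTGF (chromosome 6, 131948176 to 131951372), was at 483, 463 and 438 CPM under DMSO and 164, 132 and 161 CPM under abemaciclib, and its log2 fold change was −1.60 (SE 0.10, adjusted p 1.4e-16). MYOF, which repairs the plasma membrane, rose by 1.40 (SE 0.12, adjusted p 2.2e-12), the TEAD cofactor VGLL4 by 1.06 (SE 0.20, adjusted p 3.7e-05) and the ligand TGFB2 by 1.04 (SE 0.25, adjusted p 0.00112), while YAP1 was at −0.11 (adjusted p 0.661). Members of this list thus lay on both sides. In the TGF-beta pathway, 12 of 28 tested genes rose and 3 fell (median 0.33). LTBP matrix proteins made up 3 of the 4 leading members: LTBP1, which holds latent TGF-beta in the matrix, at 3.65, 7.94 and 7.22 CPM under DMSO and 41.7, 33.4 and 36.8 CPM under abemaciclib, rose by 2.56 (SE 0.25, adjusted p 3.1e-11), and LTBP2 and LTBP3 rose by 1.57 and 1.07.

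Of 37 inflammatory cytokines and chemokines, 7 were expressed enough to test (median 1.31). TGFA, CSF1, the growth factor of macrophages (from 5.52 ± 1.98 to 20.0 ± 2.52 CPM), and IL18 (from 18.3 ± 2.23 to 53.1 ± 5.05 CPM) rose, and IL11 fell. Of 18 NF-kappaB pathway genes, 4 rose (22.2%) and 3 fell (16.7%), with a median of 0.11, and both shares were near the 16.9% of all genes. The 4 became 1 without abemaciclib replicate 1 and 2 without abemaciclib replicate 2. SOD2, the mitochondrial superoxide dismutase, rose by 0.76 (SE 0.19, adjusted p 0.00158), NFKB1, which encodes the p50 precursor, fell (−0.82, SE 0.16, adjusted p 1.1e-04), and RELA, which encodes p65, was at −0.22 (adjusted p 0.211). Of 33 Notch and Wnt genes, 7 rose (21.2%, near the share of all genes) and 1 fell (median 0.08), and the 7 became 4 without DMSO replicate 1. The single fall was lost without any one of DMSO replicates 1 and 3 and abemaciclib replicates 2 and 3, with the replicate number as a block, with only the 6 libraries compared and under both other filters on low counts, and became 2 without abemaciclib replicate 1. WNT7B, a secreted Wnt ligand, rose by 2.09 (SE 0.33, adjusted p 2.6e-06), and the Wnt coreceptor LRP5 by 0.75 (SE 0.22, adjusted p 0.00614). Of 32 aquaporin, channel and pump genes, 13 rose and 3 fell (median 0.57). Calcium-linked channels led this list after AQP3, with KCNN4, a calcium-activated potassium channel (from 4.68 ± 1.33 to 24.5 ± 6.57 CPM), TRPM4, a calcium-activated cation channel (from 3.08 ± 1.66 to 9.94 ± 2.60 CPM), and PIEZO1, a mechanically gated channel (from 24.6 ± 1.66 to 65.6 ± 6.67 CPM). Of 34 genes of sialic acid, mucin and glycan synthesis, 10 rose and 1 fell (median 0.31), with rises of 1.77 and 0.98 in the O-glycan initiating enzymes GALNT6 and GALNT10 and of 0.76 and 0.62 in MGAT4B and B4GALT1, which extend N-glycans, but the 10 became 5 or 6 without any one library other than abemaciclib replicate 3, and leaving out replicate 3 of either group removed the single fall.

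On the repressed side, sets that build and use ribosomes, spliceosomes and proteasomes fell with few or no rises. Falls were more frequent among highly expressed genes in general, at 36.9% of those averaging at least 100 CPM. These sets and the chaperone and ATF4 lists below were not compared with genes of matched level, so their excess of falls over 16.9% is in part unresolved. Of 52 genes of ribosome biogenesis, none rose and 37 fell (71.2%), with a median of −0.60. DKC1, the pseudouridine synthase dyskerin of the box H/ACA particles (chromosome X, 154762742 to 154777689), was at 664, 713 and 601 CPM under DMSO and 301, 351 and 369 CPM under abemaciclib, and its log2 fold change was −0.95 (SE 0.10, adjusted p 4.6e-10). The processing factors PPAN, RRP9 and MRTO4 fell (−1.22, −1.17 and −0.95). The ribosomal proteins themselves had more rises than falls. Of 76 cytosolic ribosomal protein genes, 20 rose and 3 fell (median 0.07), with RPL22, RPS21, RPS25 and RPL3 at 0.84, 0.38, 0.37 and 0.35. These counts were not stable: the 20 became 13 without DMSO replicate 1, 11 without abemaciclib replicate 1 and 10 without abemaciclib replicate 2, and the 3 became 0 without DMSO replicate 2 or 3 and 1 without abemaciclib replicate 1 or 3. Ribosomal protein genes also have many processed copies in the genome, which can take reads.

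Splicing factors and heterogeneous nuclear ribonucleoproteins fell in 47 of 63 tested members (74.6%) and rose in 1, with a median of −0.48. SRSF1, a serine and arginine-rich splicing factor, was at 223, 185 and 196 CPM under DMSO and 94.9, 95.7 and 106 CPM under abemaciclib (−1.02, SE 0.11, adjusted p 6.4e-10), and HNRNPD, an AU-rich element binding protein also called AUF1, fell from 635 ± 8.21 to 298 ± 10.5 CPM (−1.09, SE 0.09, adjusted p 1.8e-13). For both genes the highest abemaciclib library was below the lowest DMSO library. LSM6, SRSF4 and HNRNPAB fell (−1.20, −1.11 and −1.09), and the core snRNP protein SNRPD2 was at 0.14 (adjusted p 0.253). The single rise was lost without DMSO replicate 3, abemaciclib replicate 1 or abemaciclib replicate 2.

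Proteasome subunits fell in 30 of 38 (78.9%), with none higher and a median of −0.52. PSMD11, a scaffold of the 19S lid (chromosome 17, 32444379 to 32483319), was at 652, 643 and 651 CPM under DMSO and 269.7, 254 and 333 CPM under abemaciclib, and its log2 fold change was −1.18 (SE 0.10, adjusted p 4.6e-13). The ubiquitin receptor ADRM1 and the 19S ATPases PSMC1 and PSMC6 fell (−0.99, −0.99 and −0.90), and the constitutive catalytic subunit PSMB5 was at −0.09 (adjusted p 0.465). The called subunits on this list fell, whereas the immunoproteasome genes PSMB9 and PSME1 rose. Nuclear pore and transport genes fell in 27 of 46 (58.7%), with none higher (median −0.42). XPO1, the main exporter of proteins from the nucleus, was at 105, 115 and 133 CPM under DMSO and 56.9, 54.4 and 61.9 CPM under abemaciclib (−1.02, SE 0.13, adjusted p 2.2e-08), and RCC1, the Ran exchange factor, RANBP1 and the channel nucleoporin NUP58 fell (−1.09, −0.96 and −0.86). Of 40 translation factors, 1 rose and 16 fell (median −0.19), led by the helicase EIF4A1 (−1.66), the GTPase activator EIF5 (−1.19, SE 0.10, adjusted p 9.8e-13), EIF3J (−0.94) and EIF2S2, the β subunit of eIF2 (−0.72). The share of translation factors that fell (40%) was near the 36.9% of genes averaging at least 100 CPM. The counts of EIF4A1 are uncertain, because its exons are shared with a readthrough gene.

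Chaperones of the cytosol and the endoplasmic reticulum fell in 21 of 42 tested members (50%) and rose in 2, with a median of −0.34. HSP90AA1, the stress-inducible HSP90 (chromosome 14, 102080742 to 102139699), was at 4898, 4921 and 4821 CPM under DMSO and 1952, 2142 and 2410 CPM under abemaciclib, and its log2 fold change was −1.17 (SE 0.09, adjusted p 1.8e-14). CHORDC1, a cochaperone of HSP90 (chromosome 11, 90200429 to 90223077), was at 51.5, 70.0 and 67.7 CPM under DMSO and 20.6, 32.2 and 17.7 CPM under abemaciclib, and its log2 fold change was −1.43 (SE 0.20, adjusted p 3.1e-07). The HSP70 exchange factor HSPH1 and the inducible HSP70 gene HSPA1B fell (−1.10 and −1.08). HSPA1B has a near-identical neighbour, so that its counts are uncertain. The 2 rises became 1 without DMSO replicate 1 or 3 or abemaciclib replicate 1 or 3 and with the replicate number as a block.

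A heat shock element, searched on either strand as GAA, TTC and GAA with any 2 bases between neighbours, was present in 0.49% of all windows, in 0.468% of tested genes with a window and in 6 of 40 chaperone genes (15.0%). All 6, CHORDC1, DNAJA1, HSP90AA1, HSP90AB1, HSPA8 and HSPD1, were among the 20 chaperone genes with a window that fell, and none of the 18 that were not called held the letters. Across all tested genes the letters were present in 4 of 1501 that rose (0.266%), 12 of 1529 that fell (0.785%) and 25 of 5725 not called (0.437%). These 6 chaperone genes are among the 12. DNAJA1, HSPA8 and HSPD1, a DNAJ cochaperone, the constitutive HSP70 and the mitochondrial HSP60, are named after their values were seen and had log2 fold changes of −0.73, −0.51 and −0.40. The HSPD1 call was lost without DMSO replicate 3 (−0.29). CHORDC1 at chr11:90223000-90223299 (minus strand) is shown because it had the largest fall of the list and 3 overlapping matches, which begin 60, 55 and 50 bases before the start and are given as a single run in capitals.
CHORDC1: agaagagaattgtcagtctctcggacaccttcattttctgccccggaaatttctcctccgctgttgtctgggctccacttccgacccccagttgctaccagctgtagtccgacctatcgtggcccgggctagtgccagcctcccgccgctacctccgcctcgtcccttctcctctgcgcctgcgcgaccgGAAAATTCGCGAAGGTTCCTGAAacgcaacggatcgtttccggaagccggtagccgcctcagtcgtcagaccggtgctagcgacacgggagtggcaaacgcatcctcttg

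Genes of the ATF4 stress response, which include amino acid transporters and tRNA synthetases, fell in 16 of 35 tested (45.7%) and rose in 2 (median −0.42). SLC7A5, the LAT1 transporter of large neutral amino acids (chromosome 16, 87830023 to 87869507), was at 223, 206 and 214 CPM under DMSO and 91.7, 94.2 and 80.7 CPM under abemaciclib, and its log2 fold change was −1.27 (SE 0.11, adjusted p 1.0e-12). The glutamine transporter SLC1A5 and CEBPG, a partner of ATF4, fell (−1.13, SE 0.10, adjusted p 2.8e-12, and −1.35, SE 0.22, adjusted p 6.0e-06). MARS1 and YARS1, the methionyl and tyrosyl tRNA synthetases, fell (−0.89, SE 0.14, adjusted p 2.6e-06, and −0.73, SE 0.14, adjusted p 5.3e-05). DDIT4, an inhibitor of mTORC1 that hypoxia also induces, went the other way, at 4.57, 6.18 and 3.61 CPM under DMSO and 21.1, 22.8 and 28.3 CPM under abemaciclib (2.32, SE 0.30, adjusted p 3.5e-08). The 2 rises became 1 without DMSO replicate 2 or abemaciclib replicate 2. The C/EBP-ATF response element was searched as TTGCATCA on either strand. It was present in 0.866% of all windows, in 0.708% of tested genes with a window and in 10 of 29 genes of this list (34.5%), namely 7 of 15 that fell, 2 of 12 not called and 1 of 2 that rose. Across all tested genes the share was 0.533% of those that rose, 1.18% of those that fell and 0.629% of those not called. MARS1 at chr12:57487818-57488117 (plus strand) is shown as a member that fell and whose letters, in capitals, begin 4 bases before its start.
MARS1: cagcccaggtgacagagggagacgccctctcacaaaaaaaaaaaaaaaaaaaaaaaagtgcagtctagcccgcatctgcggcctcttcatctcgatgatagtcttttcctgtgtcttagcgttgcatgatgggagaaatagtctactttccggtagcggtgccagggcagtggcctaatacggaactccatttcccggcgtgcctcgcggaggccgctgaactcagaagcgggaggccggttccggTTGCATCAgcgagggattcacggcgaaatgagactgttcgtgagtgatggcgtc

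Transcripts of the mitochondrial genome itself went in both directions. Of 15 tested mitochondrial genome transcripts, 9 rose and 1 fell (median 0.36). MT-CO2, a subunit of cytochrome c oxidase, was at 4838, 5282 and 4670 CPM under DMSO and 11269, 10095 and 10846 CPM under abemaciclib (1.12, SE 0.07, adjusted p 1.3e-16), and MT-ND4 and MT-CYB, of complexes I and III, rose by 0.88 (SE 0.09, adjusted p 8.1e-11) and 0.88 (SE 0.08, adjusted p 3.0e-12). MT-ND6, the protein-coding gene read from the other strand of the mitochondrial genome, was at 138, 188 and 132 CPM under DMSO and 40.3, 27.6 and 56.9 CPM under abemaciclib and fell (−1.87, SE 0.16, adjusted p 2.2e-12). The 1 fall became 4 without abemaciclib replicate 3. Transcripts assigned to the mitochondrial tRNAs MT-TS2, MT-TM, MT-TF and MT-TP, which were not on this list, fell (−2.25, −2.15, −1.98 and −1.86). Mature tRNAs are too short for these libraries and mitochondrial genes adjoin each other on both strands, so the molecules behind these counts are uncertain.

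Of 73 nuclear-encoded respiratory chain subunits, 31 rose (42.5%) and 8 fell, with a median of 0.18. UQCR11 of complex III was at 223, 221 and 198 CPM under DMSO and 445, 426 and 383 CPM under abemaciclib (0.97, SE 0.10, adjusted p 6.4e-11), NDUFB2 and NDUFB1 of complex I rose by 0.83 and 0.79, and SDHB of complex II fell (−0.77, SE 0.15, adjusted p 1.0e-04). Of 40 glycolytic and hypoxia-responsive genes, 14 rose and 3 fell (median 0.21), and the 3 became 1 without abemaciclib replicate 3. NDRG1, a hypoxia-induced differentiation gene, was at 81.0, 67.7 and 72.5 CPM under DMSO and 242, 238 and 218 CPM under abemaciclib (1.66, SE 0.12, adjusted p 1.3e-14), and AK4, a mitochondrial adenylate kinase, rose by 1.59 (SE 0.18, adjusted p 1.1e-09). The glycolytic enzymes TPI1 and PFKP were at −0.06 (adjusted p 0.661) and −0.07 (adjusted p 0.712) and were not called.

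Lipid, antioxidant and p53 lists had rises and falls. Their shares were 23.7%, 23.3% and 25.8% higher and 10.5%, 26.7% and 19.4% lower, against 16.9% of all genes each way. Of 38 genes of cholesterol and fatty acid synthesis, 9 rose and 4 fell (median 0.03), and the 4 became 2 without DMSO replicate 3. The leading rises were in SREBF1, the master factor of fatty acid synthesis (1.33, SE 0.30, adjusted p 5.4e-04), the desaturase SCD (1.04, SE 0.10, adjusted p 4.2e-11), the acetyl-CoA synthetase ACSS2 (1.49, SE 0.35, adjusted p 8.7e-04) and the sterol reductase TM7SF2 (1.66, SE 0.39, adjusted p 8.6e-04). Of 30 NRF2 targets and metallothioneins, 7 rose and 8 fell (median −0.05), and the 7 became 3 without abemaciclib replicate 1 and 4 without abemaciclib replicate 2. Catalase (CAT) and the exporter ABCC3 rose by 1.33 and 1.90, and haem oxygenase 1 (HMOX1) fell (−1.80). Of 31 p53 targets and genes associated with senescence, 8 rose and 6 fell (median 0.04). IGFBP4 and IGFBP6 rose by 1.97 and 1.59, and the chromatin protein HMGB2 fell (−1.30).

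The reference list of DNA replication and mitosis genes fell in 44 of 51 members (86.3%), with none higher and a median of −0.91. PRIM1, E2F2, RRM2 and CCNA2, which encode a primase subunit, an E2F factor, a ribonucleotide reductase subunit and cyclin A2, fell (−2.87, −1.99, −1.74 and −1.58). Of the drug's targets and their partners, CCND1 rose by 0.81 (adjusted p 2.3e-10), CCND3 fell (−0.57, adjusted p 0.00488), a call lost without abemaciclib replicate 3 (−0.44), and RB1, CDK4, CDK6 and CCNE1 were not called, at −0.38 (adjusted p 0.0646), −0.15 (adjusted p 0.266), −0.32 (adjusted p 0.0592) and 0.54 (adjusted p 0.219). CDK6 passed the test with no filter on low counts (−0.31), with only the 6 libraries compared (−0.31) and without abemaciclib replicate 3 (−0.51). Of 56 chromatin regulators, 5 rose and 16 fell (median −0.24), and the 5 became 3 without abemaciclib replicate 3. EZH2 and EED, which write the H3K27me3 mark as parts of PRC2, were at 107, 111 and 119 CPM under DMSO and 28.3, 41.6 and 47.7 CPM under abemaciclib and at 84.3, 78.5 and 92.1 CPM under DMSO and 41.7, 33.4 and 43.9 CPM under abemaciclib, respectively, with log2 fold changes of −1.52 (SE 0.16, adjusted p 1.8e-10) and −1.09 (SE 0.14, adjusted p 4.0e-08). UHRF1, which guides maintenance DNA methylation, fell (−1.33).

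The remaining lists were cilium genes, with 4 rises and no fall among 39 tested (median 0.22), and long noncoding RNAs chosen by name, with 12 rises and 6 falls among 34 (median 0.16). The share of cilium genes that rose (10.3%) was below that of all genes, and DYNC2LI1 and BBS2 rose by 2.19 and 1.5. EPB41L4A-AS1, a spliced host of a small nucleolar RNA, rose by 1.62 (SE 0.17, adjusted p 3.7e-10) and DLEU2, the host of miR-15a and miR-16-1, fell (−1.44, SE 0.34, adjusted p 9.9e-04). The 6 falls became 3 without DMSO replicate 2 or abemaciclib replicate 1.

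Some leading members of these lists lost their call when certain single libraries were left out. The rises of the NF-kappaB subunits RELB (1.32) and NFKB2 (0.88) were lost without abemaciclib replicate 1, and that of RELB also without DMSO replicate 3 or abemaciclib replicate 2 and that of NFKB2 without DMSO replicate 1. The autophagy genes GABARAPL1 (1.60) and ATG10 (1.18) lost their calls without DMSO replicate 1, the former also without abemaciclib replicate 2 and the latter without DMSO replicate 3 or abemaciclib replicate 3. The acetyltransferase KAT2B (1.19) lost its call without DMSO replicate 2 or abemaciclib replicate 3, and the cilium genes TCTN1 (1.12) and ARL3 (0.56) lost theirs without DMSO replicate 3 or abemaciclib replicate 3, and without abemaciclib replicate 2. The rises of the receptor ERBB2 (0.67) and the Notch ligand JAG1 (0.89) were each lost without any of 3 libraries, DMSO replicate 2 and abemaciclib replicate 1 among them in both, with DMSO replicate 3 for the former and DMSO replicate 1 for the latter. ANGPTL4 (0.90) and OSGIN1 (0.99), a hypoxia-induced lipase inhibitor and an NRF2 target, were lost without any of 4 libraries, which were DMSO replicate 1 and abemaciclib replicates 1 and 2 in both and DMSO replicate 3 or 2 in turn. LFNG (1.15), which glycosylates Notch, was kept only when DMSO replicate 2 was the library left out, and was lost with no filter on low counts. The long noncoding RNAs TMPO-AS1 (−1.96) and MIR22HG (1.21) were lost without abemaciclib replicate 1, and without DMSO replicate 2 or DMSO replicate 3 in turn.

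**Figure D3:**
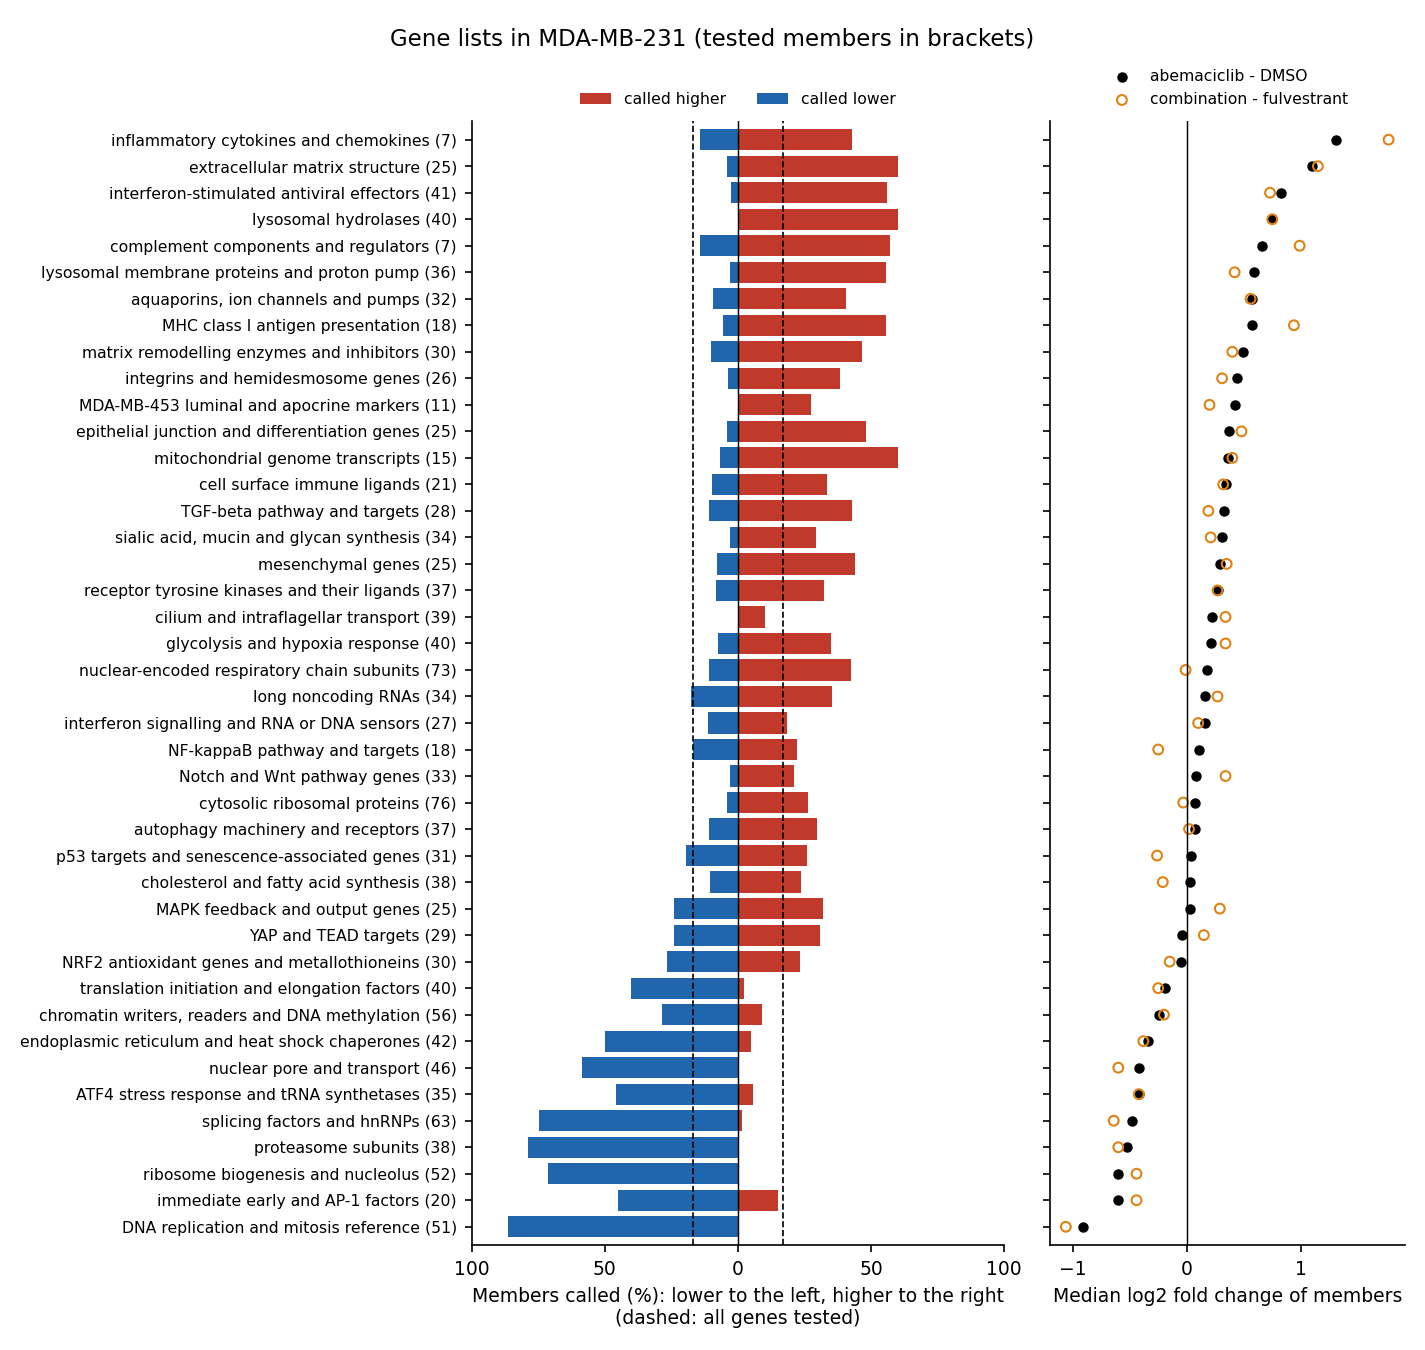
Left, the share of tested members of each list called higher (red, to the right) or lower (blue, to the left), in percent, with dashed lines at the 16.9% of all genes tested; right, the median log2 fold change of the members for abemaciclib against DMSO (filled) and for the combination against fulvestrant (open). Lists from matrix to integrins lie to the right of 0 and those from proteasome to DNA replication to its left in both comparisons.

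Families matched by gene symbol, rather than by pathway, gave a further view. Among 83 families with at least 6 tested members, the 10 with the largest share of rises were annexins (7 of 8), laminin chains (5 of 6), S100 proteins (5 of 7), glutathione transferases (8 of 12), cathepsins (5 of 9), adhesion G protein-coupled receptors (6 of 11), IFI, IFIT and IFITM genes (7 of 13), ATP synthase subunits (10 of 19), GALNT transferases (5 of 10) and IGF-binding proteins (3 of 6). ATP synthase had 1 fall and the other 9 families had none. Annexins are calcium-dependent membrane-binding proteins, and ANXA4 and ANXA6 rose from 9.29 ± 0.519 to 28.0 ± 3.15 CPM and from 194 ± 5.30 to 347 ± 17.6 CPM. The glutathione transferase family was led by MGST3, a microsomal enzyme, at 37.8, 36.8 and 43.03 CPM under DMSO and 165, 150.4 and 136 CPM under abemaciclib (1.94, SE 0.13, adjusted p 3.3e-15), and by GSTM4 (1.44). Among the adhesion receptors, which have a large extracellular domain cleaved from the membrane part, ADGRF5 was at 66.1, 69.1 and 64.4 CPM under DMSO and 265, 264 and 287 CPM under abemaciclib (2.03, SE 0.11, adjusted p 9.4e-19) and ADGRG1 rose by 2.49; an antisense transcript is counted among the 6. S100A10, the partner of annexin A2, rose by 1.12, GALNT5 by 2.63, the interferon-inducible IFI27L2 and IFI27L1 by 1.78 and 1.54, and the ATP synthase inhibitor ATP5IF1 and subunit ATP5MD by 0.73 and 0.81.

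The 10 families with the largest share of falls were the chaperonin CCT (6 of 7), HNRNP genes (17 of 21), variant histones (7 of 9), SRSF genes (8 of 11), CENP genes (15 of 21), proteasome subunits (30 of 45), MCM helicase and GINS (8 of 13), nucleoporins (13 of 22), tubulins (9 of 16) and tRNA synthetases (10 of 18). Proteasome subunits matched by symbol had 5 rises, PSMB9 and PSME1 among them. HNRNP genes, tubulins and tRNA synthetases had 1 rise each, and the other families had none. The chaperonin folds actin and tubulin, and its subunits CCT5 and CCT2 fell from 722 ± 40.5 to 433 ± 27.8 CPM and from 378 ± 5.48 to 251 ± 7.98 CPM. The variant histone H2AX, phosphorylated at DNA breaks, fell from 134 ± 11.7 to 45.7 ± 3.39 CPM (−1.55, SE 0.13, adjusted p 7.9e-13), and the linker histone H1-10 fell (−1.21). CENPU and CENPN, of the inner kinetochore, fell (−1.28 and −1.18), as did GINS2 and MCM7 (−1.39 and −1.12), of the replicative helicase, and the nuclear basket protein NUP153 (−0.81). The HNRNP family includes the pseudogene HNRNPA1P48 (−1.20) and the tubulin family the pseudogene TUBBP1 (−0.95), which can share reads with their parents, and the call of the former was lost without any one of DMSO replicates 1 and 2 and abemaciclib replicates 2 and 3, with the replicate number as a block and by DESeq2.

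Abemaciclib was measured again as the combination against fulvestrant alone. The 6 libraries of this comparison do not enter the fold changes over DMSO, but all 12 libraries share the estimate of the spread. In that comparison 4082 of 11314 genes were called (36.1%). Of the 3815 genes called against DMSO, 3631 had the same sign (95.2%) and 2619 were called in both comparisons, which is 68.7% of the former and 64.2% of the latter. Of the 2619, 2609 had the same direction and 10 the opposite. By list, the medians against fulvestrant were 1.15 for matrix structure, 0.75 for lysosomal hydrolases, 0.73 for antiviral effectors, 0.94 for MHC class I, −0.60 for proteasome subunits and −0.64 for splicing factors. Among single genes, AQP3, GBP1, GAA and FN1 were at 4.24, 1.66, 1.17 and 3.04, and IL11, CCN2 and PSMD11 at −4.44, −2.44 and −1.05. Lists with small medians gave other counts. Nuclear-encoded respiratory chain subunits had 24 rises and 16 falls (median −0.01), and cytosolic ribosomal proteins 5 rises and 12 falls (median −0.03), where the comparison with DMSO had 20 and 3.

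**Figure D4:**
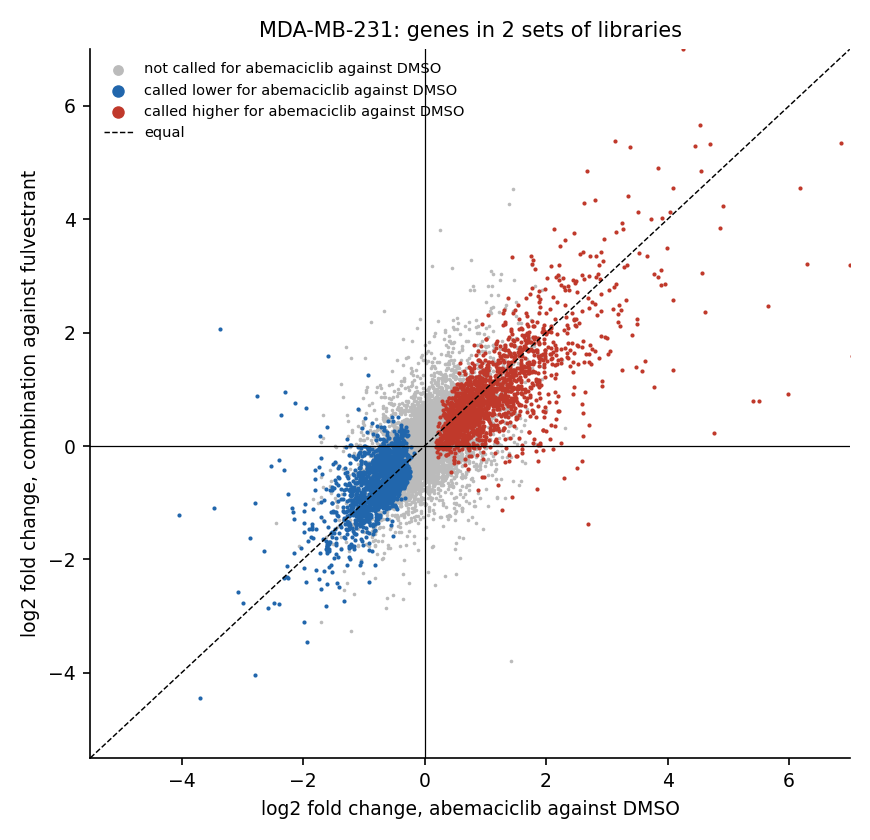
Each point is a gene tested in MDA-MB-231, with the log2 fold change of abemaciclib over DMSO on the horizontal axis and that of the combination over fulvestrant, from 6 other libraries, on the vertical axis; red and blue mark genes called higher and lower against DMSO, and genes beyond the axes are not drawn. Most called genes lie in the lower left and upper right quadrants, as 95.2% of them have the same sign.

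Whether the response differed from that of the epithelial line was tested by subtracting the log2 fold change in MDA-MB-231 from the one in MDA-MB-453. The difference was called for 2639 of 12750 genes (20.7%). S100A6, which rose in MDA-MB-231, had a log2 fold change of −1.49 in MDA-MB-453 and a difference of −4.18 (adjusted p 1.8e-24). AGR2 and IGFBP4 were at −0.51 and −3.18 there, with differences of −4.96 (adjusted p 4.7e-18) and −5.15 (adjusted p 2.5e-14), and HSP90AA1 and HSPH1 were at 0.00 and 0.25, with differences of 1.18 (adjusted p 3.7e-10) and 1.35 (adjusted p 2.5e-10). For other genes the difference was not called: DUSP6 was at 1.81 with a difference of 0.24 (adjusted p 0.275), CD59 at 1.21 with −0.26 (adjusted p 0.228), and PSMC6 at −0.47 with 0.44 (adjusted p 0.0783), which does not show that the lines responded alike.

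By list, values are given side by side, since no test compared the lists. For MDA-MB-453 only members that were also tested in MDA-MB-231 were taken, so the 2 lines can cover different genes of a list. The antiviral effectors had 23 rises and 1 fall among 41 tested in MDA-MB-231 (median 0.83). In MDA-MB-453 they had 2 rises and 6 falls among the 22 of these 41 that were tested there too (median −0.39). The membrane and pump genes of the lysosome had 20 rises among 36 and 21 among 35 (medians 0.59 and 0.60). Respiratory chain subunits had 31 rises and 8 falls against 2 and 41, ribosomal proteins 20 and 3 against 1 and 64, and chaperones 2 and 21 against 12 and 14. Replication and mitosis genes fell in 44 of 51 in MDA-MB-231 and in all 51 in MDA-MB-453, with medians of −0.91 and −3.41.

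**Figure D5:**
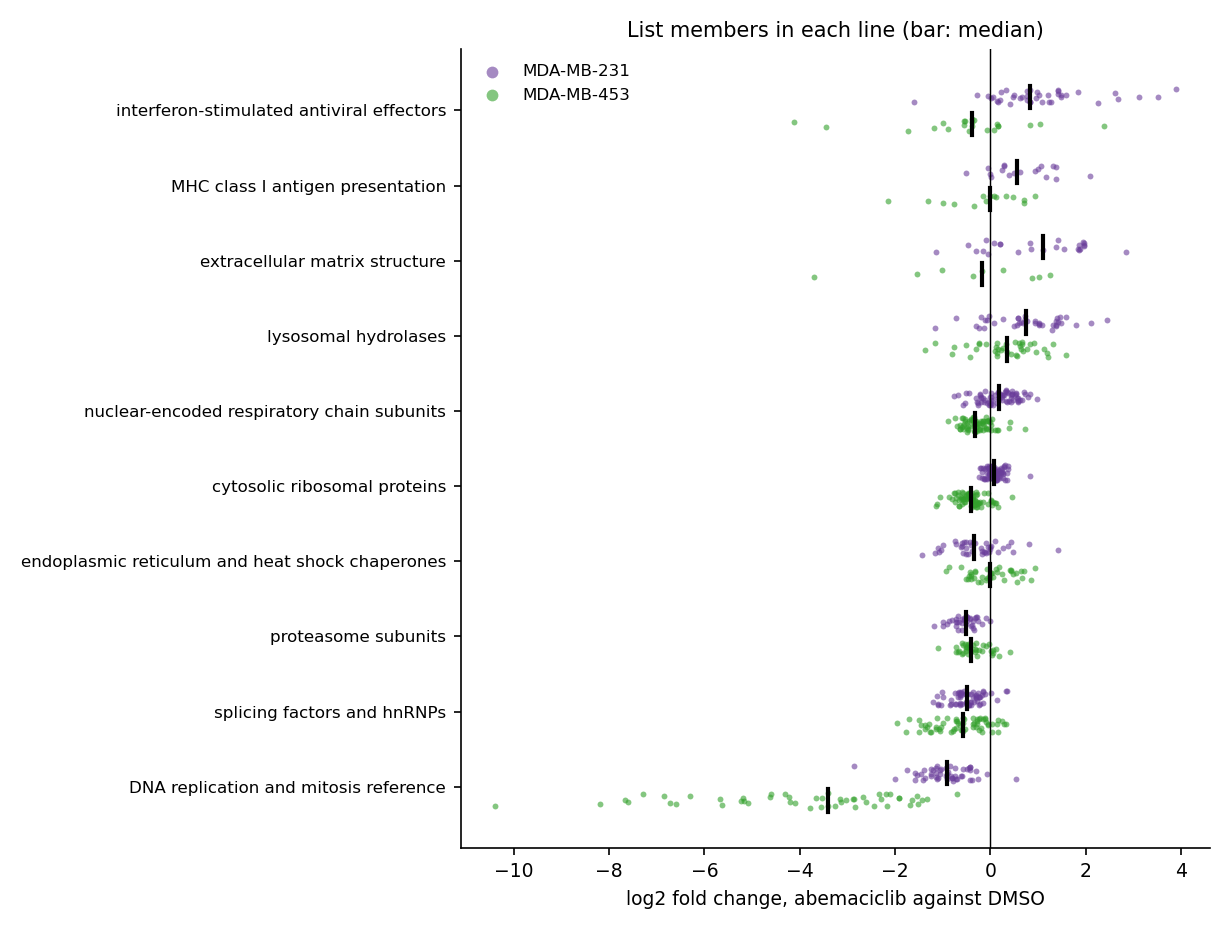
Points are the members of 10 lists tested in MDA-MB-231, with the log2 fold change of abemaciclib over DMSO on the horizontal axis. Values are shown in MDA-MB-231 (purple, upper row of each list) and, for members tested there too, in MDA-MB-453 (green, lower row). Black bars are medians and the vertical spread within a row has no meaning. Antiviral effectors, ribosomal proteins and chaperones have medians on opposite sides of 0 or near it in the 2 lines, whereas proteasome and splicing members lie mostly left of 0 in both.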

How the data were processed

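Libraries were made with a 3′ kit that primes at the poly(A) tail and sequenced as single-end reads of 100 bases. Per the labels and the study's methods, the authors used BBDuk for trimming, STAR for alignment to hg38 and featureCounts for counting per gene on GENCODE v35. The deposited values are raw counts per gene, with no normalization. The strand setting, the treatment of reads with several alignments and any use of molecular identifiers are not given in the sources used here, so counts cover reads and not molecules.

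The 12 MDA-MB-231 libraries were fitted together with edgeR 4.0.16 (R 4.3.3, limma 3.58.1), using filterByExpr, TMM factors and the quasi-likelihood test, with n = 3 per group and an adjusted p (Benjamini-Hochberg) below 0.05. CPM are counts over the library total multiplied by the TMM factor, and SE is the absolute log2 fold change over the root of F. A row that names no gene held 0 counts. The difference between lines was the interaction in a model of all 24 libraries. DESeq2 1.42.0, other scalings and filters, the 6 libraries alone, a replicate block, a minimum change of 2-fold and leaving out each library were the alternatives. No pair of libraries in a group was a copy of the other, as their counts differed by more than sampling noise (chi-square per degree of freedom 3.19 to 6.05). The fit was tested on simulated data.

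Members and lists were chosen with earlier results of these data known. Genes were named by rule: the 12 largest called rises and falls in log2 fold change among genes of at least 10 CPM with no overlap between groups, the 10 largest in CPM outside the mitochondrial genome, the 4 leading called members of each list of at least 5 CPM, the 2 leading members of each family, the drug's targets and markers of the line, and uncalled list members of at least 20 CPM with the smallest change. Exceptions are stated, and a few genes the rule names are not reported here. Coordinates are from GENCODE v44, which matched 10826 of the tested symbols, and promoter windows from RefSeq on GRCh38.p14, which had a window for 8755 tested genes. A promoter start may not be the one used in this line.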

Additional observations from a re-analysis of the deposited data

Results flagged for a closer look

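The abemaciclib effect differed between the lines by edgeR's quasi-likelihood test of the difference for 2639 genes. Of the genes named above, 200 were tested in both lines and 124 had a called difference, and 28 of these were called in opposite directions. Most were named for their calls in MDA-MB-231, and no share of opposite calls was taken over all genes. Some calls in MDA-MB-453 were near the threshold by the same kind of test, with adjusted p of 0.0411 for LTBP1, 0.0302 for TNC and 0.0286 for HSPH1. The difference is given here as the log2 fold change in MDA-MB-453 after subtraction of the MDA-MB-231 value. Of the secreted, matrix and calcium-binding genes that rose in MDA-MB-231, the differences were −5.15 for IGFBP4, −4.96 for AGR2, −4.18 for S100A6, −3.59 for LTBP1, −3.47 for TNC and −2.23 for LGALS1. In MDA-MB-453 itself IGFBP4 and AGR2 had log2 fold changes of −3.18 and −0.51. Of interferon-related and antigen presentation genes, IFI27L2 differed by −3.63 and HLA-C by −2.07. Of lipid and metabolic genes, TM7SF2, ACSS2 and SCD differed by −2.30, −2.13 and −1.34, and NDRG1, GSTM4 and NDUFB1 by −2.51, −2.21 and −1.15. The ribosomal protein genes RPS29, RPS21, RPS12, RPLP0 and RPS25 differed by −1.32, −1.03, −1.0, −0.99 and −0.70, TMSB4X by −1.68 and ARL3 by −1.34. Genes that fell in MDA-MB-231 and rose in MDA-MB-453 were the chaperones HSPA1B, HSPH1 and HSP90AB1, with differences of 2.02, 1.35 and 0.89, the translation factor EIF3J (1.29) and the counts assigned to the mitochondrial tRNAs MT-TF, MT-TS2 and MT-TP (4.06, 4.01 and 2.50). Groups of 3 libraries were too small to look for single libraries far from the others.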

How the results depend on the processing

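When a change of at least 2-fold was required, 229 genes were called, 197 higher and 32 lower. Under the other 13 alternatives all 3815 calls kept their sign wherever the gene was tested. Of them, 2125 (55.7%) kept their call under all 13, where a gene that a setting did not test counts as not kept. The filter at 10 CPM on average tested only 8031 genes. Calls against DMSO ranged from 3206 to 3482 when each library was left out in turn (1581 to 1730 higher, 1573 to 1752 lower), those against fulvestrant from 3411 to 3942 and those between lines from 2316 to 2659. DESeq2 called 3788, 4013 and 2843 genes in these comparisons. Of the called genes named, 210 kept their call under each of the 13 that tested them and 20 did not, and of 86 list counts 55 stayed within 1.5 times. The uncalled values of CDH1 and IFIT5 ranged from −0.47 to 0.14 and from −0.08 to 0.18 when each library was left out, with the sign changed without abemaciclib replicate 3 and without DMSO replicate 2.

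Replicate numbers are shared by the groups, but same-numbered libraries did not deviate together (correlations 0.0046, −0.020 and 0.0040), so the numbers were not taken to pair the samples. With the number as a block, 3672 genes were called against DMSO (1830 higher, 1842 lower), 3940 against fulvestrant and 2504 between lines. The library totals limit the precision for genes of a few CPM, which hold a few counts per library.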
